A study of Homo sapiens with 53 samples.

Results

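TET2-Flag binding was compared between HEK293T cells given BPK-25 and cells given the solvent DMSO. All intervals of the TET2 DMSO and TET2 BPK-25 peak lists were taken, and overlapping or touching intervals were merged. The DMSO list held 1309 intervals, which merged to 1233 peaks covering 0.327 Mb. The BPK-25 list held 630 intervals, which merged to 509 peaks covering 0.168 Mb. These 1742 peaks, at 1435 distinct places, were taken from the 706206 merged peaks of the 10 lists of the series. HEK293T is a human embryonic kidney line that carries adenoviral sequence and the SV40 large T antigen. Per the labels, both groups were TET2_Flag cells of this line, described as edited derivatives of it, and were held for 72 h with DMSO or with 30 uM BPK-25, each followed by ChIP-seq with a Flag antibody. The labels name 2 DMSO and 3 BPK-25 TET2 immunoprecipitates and 3 inputs for each treatment, although the DMSO list is named for 3 replicates. They do not give the allele, promoter or number of clones behind the tag. Lists made the same way for TET1_Flag and TET3_Flag cells, and for CTCF and MBD3 in parental cells, were used beside them.

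TET2 is a dioxygenase that oxidises 5-methylcytosine to 5-hydroxymethylcytosine and further products, the first steps of active DNA demethylation. Unlike TET1 and TET3 it has no CXXC DNA-binding domain of its own, so that its place on chromatin is thought to depend on partner proteins. CTCF is the zinc-finger protein that anchors chromatin loops and bounds domains, and MBD3 is a subunit of the NuRD chromatin remodelling and deacetylase complex. BPK-25 is a small molecule reported to lower the levels of NuRD subunits in cells.

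Each list was called from all immunoprecipitates of a treatment together, so there is 1 list per treatment, no spread between replicates and no test between treatments. Every interval below covers counting error only. From the fold enrichment and the Poisson p-value of each summit, the whole number of fragments there (the pileup) and the background that the peak caller set against it were recovered. The genome background, the lowest such value in a list, was 1.25 fragments under DMSO and 1.047 under BPK-25, so that the BPK-25 list stood at 83.7% of the DMSO level. Relative pileup is the pileup divided by the genome background of its list. Peaks on a local background of 20 or more times the genome background made up 56 of the DMSO peaks (4.54%) and 170 of the BPK-25 peaks (33.4%), and they are given apart from the rest, which are called ordinary-background peaks. Flag immunoprecipitates of untagged cells were not analysed here.

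Most ordinary-background TET2 peaks of DMSO cells had no counterpart after BPK-25. A DMSO peak is called kept where it overlapped a BPK-25 TET2 peak by at least 1 bp, and lost where it did not. Of the 1177 ordinary-background DMSO peaks 250 were kept (21.2%, 95% Clopper-Pearson interval 18.9 to 23.7%) and 927 were lost, against 24.7% kept over all 1233 DMSO peaks. Of the 56 high-background peaks 54 were kept (96.4%). The lost peaks had not shifted by a short distance, since 15 of the 927 had a BPK-25 TET2 peak within 1000 bp. Kept peaks were the taller ones under DMSO. Their median pileup was 30.5 fragments at a median fold enrichment of 7.49 and a median width of 271 bp, against 16 fragments, 4.73 and 220 bp for the lost peaks.

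Retention climbed steeply with the strength of the DMSO peak. This climb is not separated from the limit for a call in the shallower BPK-25 list. On the scaled local background used below, 226 of the 927 lost peaks were not callable there even at an unchanged relative pileup. In quintiles of the DMSO −log10 q, from weakest to strongest, 0.424%, 4.26%, 7.98%, 31.0% and 62.7% of the ordinary-background peaks were kept. In the weakest quintiles, 1 and 2, too few peaks were kept to compare the shares on and off CTCF. They were 1 of 170 (0.588%) and 0 of 66 in the first, and 7 of 163 (4.29%) and 3 of 72 (4.17%) in the second. Above them the share was lower on CTCF, with the widest gap in the fourth quintile. There, 29 of the 155 peaks on a DMSO CTCF peak were kept (18.7%, 12.9 to 25.8%), against 43 of the 77 peaks off CTCF (55.8%, 44.1 to 67.2%). Both sets had almost the same median pileup, 22 fragments with CTCF and 21 without. In the strongest quintile the intervals overlapped, with 59.7% kept on CTCF and 67.4% kept off it. Over all strengths 133 of 821 peaks on CTCF were kept (16.2%, 13.7 to 18.9%) and 117 of 356 off CTCF (32.9%, 28.0 to 38.0%). Overlap with DMSO MBD3 went the other way by less, with 227 of 1033 kept on MBD3 and 23 of 144 kept off it, and the intervals of those shares overlapped.

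**Figure D1:**
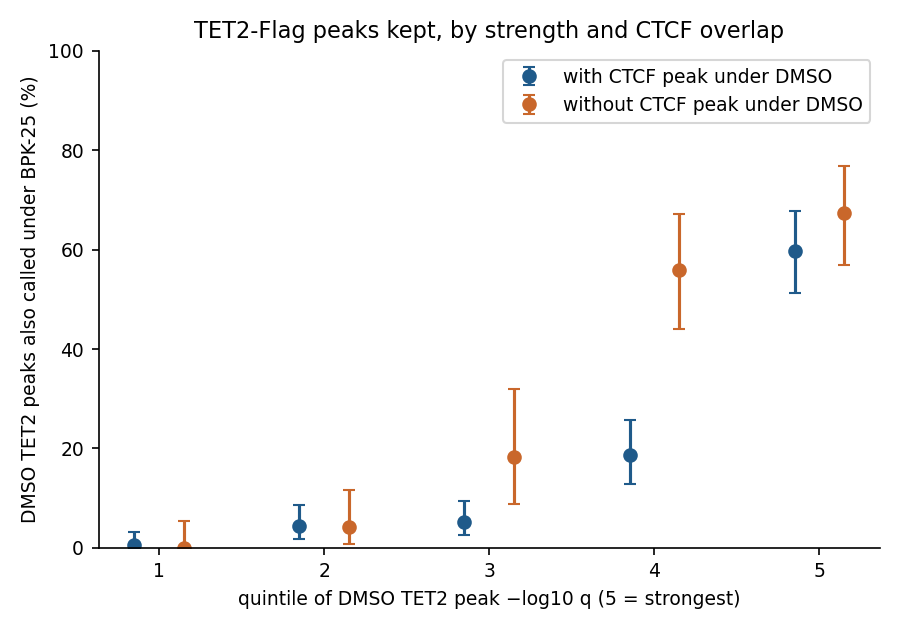
Share of ordinary-background DMSO TET2-Flag peaks that were also called under BPK-25 (vertical axis, percent) in quintiles of the DMSO −log10 q (horizontal axis, 5 the strongest), for peaks with and without a DMSO CTCF peak; bars are 95% Clopper-Pearson intervals. The shares climb from near 0 to above 55% for both sets, and in quintile 4 they stand at 18.7% with CTCF and 55.8% without.

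Kept TET2 sites were sites that TET1 and TET3 also occupied under DMSO. TET1 and TET3 are the other TET dioxygenases, and their lists came from the same Flag antibody in other tagged cells. A TET1 DMSO peak overlapped 244 of the 250 kept peaks (97.6%) and 603 of the 927 lost peaks (65.0%), and a TET3 DMSO peak overlapped 248 (99.2%) and 698 (75.3%). Read from the other side, 244 of the 787 peaks shared with both proteins were kept (31.0%), 4 of the 219 shared with 1 of them (1.83%) and 2 of the 171 shared with neither (1.17%). Peaks shared with both were also stronger, so this split is not independent of strength: in the weakest quintile 93 of 236 peaks were shared with both, and in the strongest 233 of 236. Among the peaks shared with both, 23.6% were kept on CTCF (20.1 to 27.3%, 552 peaks) and 48.5% off it (42.0 to 55.1%, 235 peaks). Neither this split by CTCF nor that within quintiles held location apart. A pair of stretches on chromosome 6, described below, kept 54 of 71 peaks, and CTCF overlapped only 18 of those 71. Where the partner had a peak, its own level was higher at kept TET2 sites. The median relative pileup of TET1 under DMSO was 26.5 at kept and 13.5 at lost sites, and that of TET3 was 28.9 and 14.2.

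Under BPK-25 the partners parted. A TET3 BPK-25 peak lay on 245 of the 250 kept sites (98.0%) and still on 550 of the 927 lost sites (59.3%). A TET1 BPK-25 peak lay on 166 kept sites (66.4%) and on 40 lost sites (4.31%). CTCF peaks called under BPK-25 lay on 35.6% of kept and 55.4% of lost sites, and MBD3 peaks on 37.2% and 59.7%. Those BPK-25 lists were much alike, with 245419 CTCF and 243213 MBD3 peaks at median fold enrichments of 3.71 and 3.77. Under DMSO they differed, with 99587 CTCF peaks at a median of 11.3 and 82358 MBD3 peaks at 3.65. How far the BPK-25 lists tell CTCF from MBD3 was not tested. Few TET1 peaks were kept in total: of the 5866 ordinary-background TET1 DMSO peaks of the main chromosomes 4.09% overlapped a TET1 BPK-25 peak. The share was uneven, at 38.6% within the dense TET2 windows described below and 1.96% outside them. The TET1 share at lost sites has another base, all 927 lost TET2 peaks, of which 603 had a TET1 DMSO peak. It is therefore not shown to be particular to the lost TET2 sites. The BPK-25 lists of the main chromosomes held 345 such peaks for TET1 and 13185 for TET3.

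**Figure D2:**
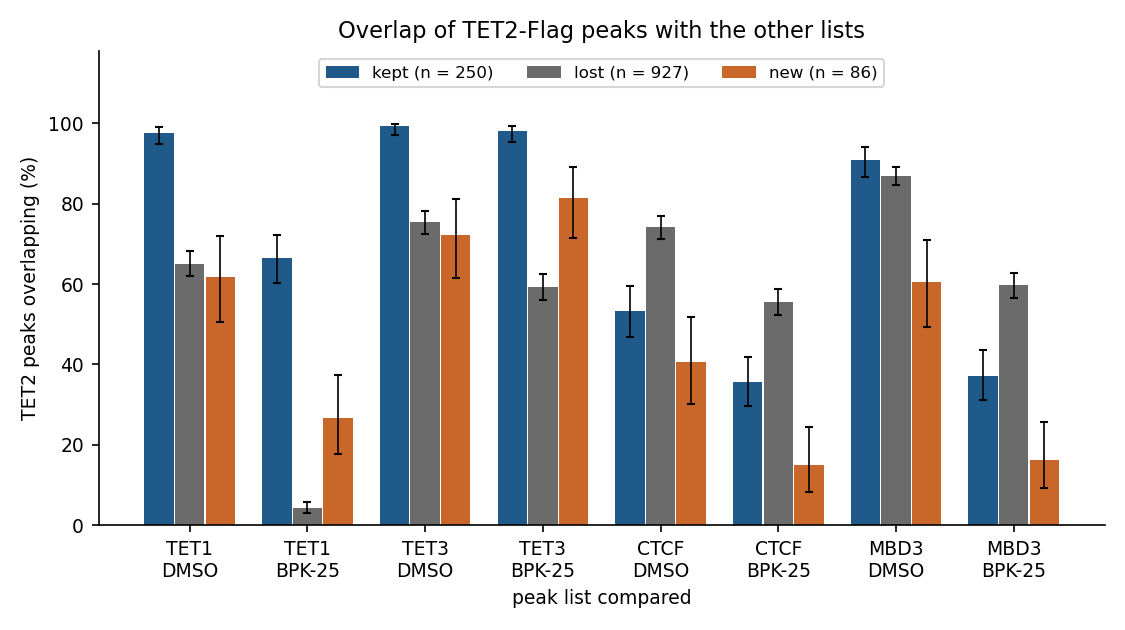
Share of ordinary-background TET2-Flag peaks that overlap a peak of each other list by at least 1 bp (vertical axis, percent), for 250 kept, 927 lost and 86 new peaks; bars start at 0 and error bars are 95% Clopper-Pearson intervals. TET1 and TET3 DMSO peaks cover 97.6% and 99.2% of kept sites, while DMSO CTCF peaks cover 53.2% of kept and 74.2% of lost sites.

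Kept and lost sites also differed in where CTCF sat. The median distance from the TET2 summit to the nearest DMSO CTCF summit was 162 bp at the 133 kept sites with a CTCF peak and 72.5 bp at the 688 lost ones. The summits lay within 50 bp of each other at 20.3% of those kept and 40.3% of those lost sites. The CTCF peaks at kept sites were no weaker, with a median DMSO fold enrichment of 25.4 against 14.4 at lost sites. MBD3 showed the opposite order, its DMSO summits lying at a median of 39 bp from kept and 67 bp from lost TET2 summits.

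Kept TET2 peaks were gathered in a few dense stretches of the genome. Ordinary-background DMSO peaks on chromosomes 1 to 22 and X were joined where their summits lay within 200 kb, and runs of at least 5 peaks were taken as windows. This rule used no BPK-25 value, and it was chosen after the data were seen. It gave 21 windows holding 237 of 1163 peaks. In these windows 134 peaks were kept (56.5%, 49.97 to 62.9%), against 111 of the 926 outside them (12.0%, 9.96 to 14.3%) and 21.1% over all 1163. CTCF covered 55.7% of the peaks inside and 73.9% of those outside. Window peaks were also taller, with median DMSO pileups by window of 19 to 61 fragments, against 18 over all ordinary-background DMSO peaks. TET1 DMSO peaks lay on 226 of the 237 inside and 610 of the 926 outside, and TET3 DMSO peaks on 232 and 703. Retention inside and outside was not compared at equal strength, so dense location is not separated from strength here. With other joining distances and minimum counts the shares were 60.8% inside and 11.7% outside (100 kb, 4 peaks), 47.6% and 10.7% (500 kb, 5 peaks), and 50.6% and 12.5% (500 kb, 8 peaks).

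**Figure D3:**
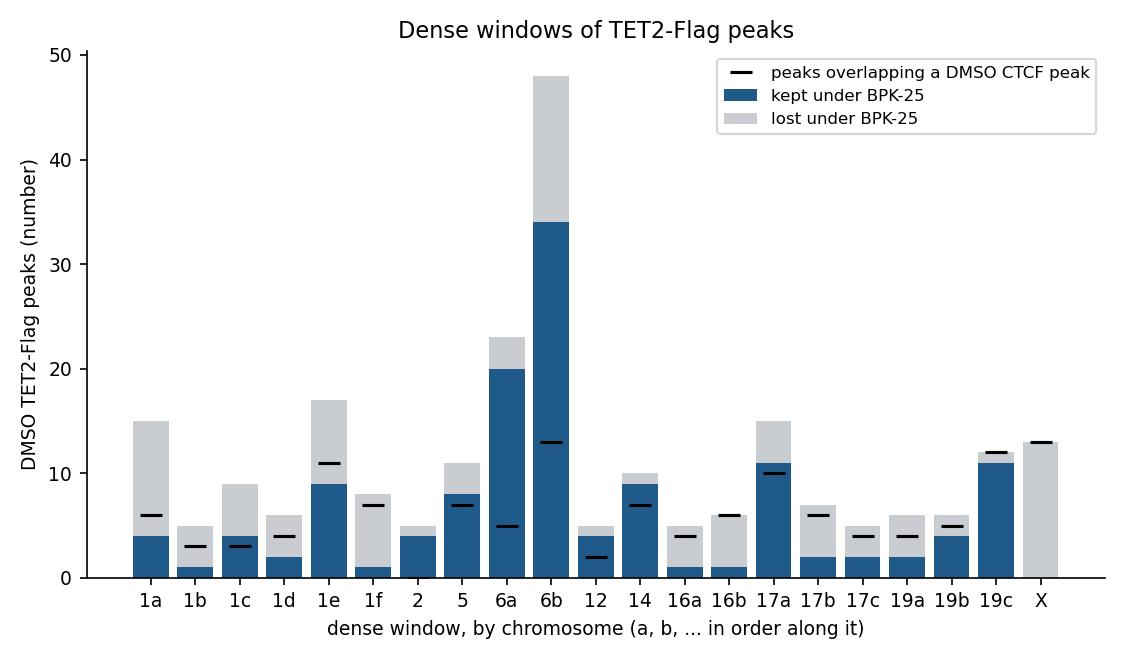
Number of DMSO TET2-Flag peaks (vertical axis) in each of the 21 dense windows (horizontal axis, by chromosome), divided into peaks kept and lost under BPK-25, with dashes for the number that overlap a DMSO CTCF peak. Both chromosome 6 windows, with 20 of 23 and 34 of 48 peaks kept, hold far more kept than CTCF-overlapping peaks, and the chromosome X window keeps 0 of 13.

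A pair of neighbouring windows on the short arm of chromosome 6 held the most. In chr6:26305568-26773905 20 of 23 DMSO peaks were kept, and in chr6:26988021-28641763 34 of 48. Together that is 54 of 71 (76.1%, 64.5 to 85.4%), where CTCF overlapped 18 (25.4%). TET3 under BPK-25 still had a peak on 70 of the 71 and TET1 on 50. The BPK-25 list added 7 new TET2 peaks in the first of these windows and 13 in the second. The relative pileup of the 53 chromosome 6 sites with matching summits was close to unchanged, with a median BPK-25 to DMSO ratio of 0.977, and 26 of the 53 stood above 1. On the authors' fold enrichment the same sites were higher under BPK-25, with a median ratio of 1.41 and 43 of the 53 above 1. The short arm of chromosome 6 is known for the largest human cluster of tRNA genes, set among histone genes and transcribed by RNA polymerase III. Gene positions on hg19, the build of the lists, were not used here, so that no peak was assigned to a gene.

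Other windows with most of their peaks kept were spread over several chromosomes. They were chr14:21077439-21152381 with 9 of 10, chr17:8022439-8286673 with 11 of 15, chr5:180524260-180649604 with 8 of 11, chr12:125399020-125424893 with 4 of 5, chr19:48273393-48453632 with 4 of 6, chr2:74273497-74329252 with 4 of 5 and chr19:50595732-50642541 with 11 of 12. The chromosome 2 window is unlike the others. TET3 there had relative pileups of 1641 to 3200 under DMSO, against a median of 28.9 at kept sites with a TET3 peak. It is taken up again in the closing section. In the chromosome 1 window chr1:161369438-161591558, 9 of 17 were kept. The chromosome 5 window shows the size of these sites: its 11 DMSO pileups ran from 22 to 46 fragments, and the pileups at the 8 kept sites under BPK-25 from 15 to 33. TET1 kept a BPK-25 peak at 10 of these 11 sites and TET3 at all 11. Elsewhere on chromosome 5 lay a trio of kept peaks spaced 7637 and 7278 bp apart, with summits at 140090903, 140098540 and 140105818. Their pileups were 37, 39 and 50 fragments under DMSO and 21, 20 and 30 under BPK-25. The BPK-25 to DMSO ratios of relative pileup were 0.678, 0.612 and 0.716, and all 3 counting intervals held 1. All 3 had TET1 and TET3 peaks under both treatments. Chromosome 5 is known to carry the VTRNA1 vault RNA genes, a small group of polymerase III genes.

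Across chromosomes, the number of kept peaks followed the number of tRNA genes more closely than the number of genes. Gene numbers were counted from the RefSeq table of the GRCh38 assembly by chromosome only. Over 23 chromosomes the Pearson correlation of kept peaks with tRNA genes was 0.924 (Spearman 0.925), and with all genes 0.515 (Spearman 0.547). For lost peaks the order was the reverse, 0.610 with tRNA genes (Spearman 0.707) and 0.866 with all genes (Spearman 0.831). Without chromosomes 6 and 1 the Pearson correlation of kept peaks was 0.734 with tRNA genes and 0.309 with all genes. That of lost peaks was then 0.594 and 0.738, so that kept and lost peaks differed less in their correlation with tRNA genes. These are descriptions over chromosomes that share both libraries and differ in length. Chromosome 6 carried 155 of 443 tRNA genes (35.0%) and 59 of the 245 kept peaks (24.1%), but 10.2% of all DMSO peaks. Chromosome 1, with 98 tRNA genes, had 35 kept of 168, chromosome 17, with 33, had 28 of 104, and chromosome 20, with 0, had 0 of 15. Chromosome 19 departed from that order, with 25 kept of 80 and 7 tRNA genes.

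Many of the chromosome 19 peaks kept came from an array with recurring spacings. In chr19:50595732-50642541 there were 12 DMSO peaks, of which 11 were kept, at gaps of 2018 to 5439 bp with a median of 5334 bp. Of the 11 gaps 6 fell between 5200 and 5500 bp and 3 between 2900 and 3100 bp. Pileups at the 11 kept peaks were 22 to 52 fragments under DMSO and 34 to 79 under BPK-25, although the BPK-25 list was the shallower. The ratio of relative pileup had a median of 1.85 and ran from 0.982 to 2.86, above 1 at 10 of the 11. The largest was at chr19:50626304-50626552, where 33 fragments under DMSO stood against 79 under BPK-25 (ratio 2.86, counting interval 1.88 to 4.43). The fold enrichment there, which uses the local background, moved the same way, from 5.95 to 17.8. All 12 peaks lay on strong DMSO CTCF peaks with a median relative pileup of 435.0. Under BPK-25 CTCF had a peak at 9 of them, with a median of 15.1. TET1 had a median relative pileup of 36.5 at the 12 under DMSO and of 15.4 at the 9 that it kept, and TET3 had 33.6 and 29.5, both at 12. TET2 was thus higher in these libraries at sites where CTCF and TET1 were lower and TET3 changed little. The lower CTCF and TET1 levels were not particular to this array. At kept TET2 sites in general, the median relative pileup of CTCF peaks was 67.6 under DMSO and 12.4 under BPK-25. That of TET1 peaks was 26.5 and 15.4, and at lost sites CTCF had 41.6 and 12.0. The long arm of chromosome 19 is known to carry arrays of the primate snaR genes, small polymerase III transcripts, and the RefSeq table lists 26 SNAR genes on that chromosome.

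The array on the long arm of chromosome X gave the opposite picture. In chrX:114960485-115004852 13 DMSO TET2 peaks stood at a median spacing of 2981 bp, 10 of the 12 gaps falling between 2900 and 3100 bp. Their pileups, 30 to 47 fragments, were like those of the chromosome 19 array, and none of the 13 was kept. The background there was higher, 7.60 to 12.1 times the genome background, against 3.55 to 7.002 times on chromosome 19. For that reason the limit is close: at an unchanged relative pileup 12 of the 13 would have been called under BPK-25, but by a margin of at most 1.67-fold, with a median of 1.24. CTCF at these peaks had a median relative pileup of 1069 under DMSO and 56.7 under BPK-25, with a peak at all 13 in both lists. TET3 had a higher median under BPK-25, 49.2 at 12 sites, than under DMSO, 28.3 at 13. TET1 had a peak at 11 of the 13 under DMSO and at 0 under BPK-25. A CTCF-bound macrosatellite repeat is known on this arm.

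**Figure D4:**
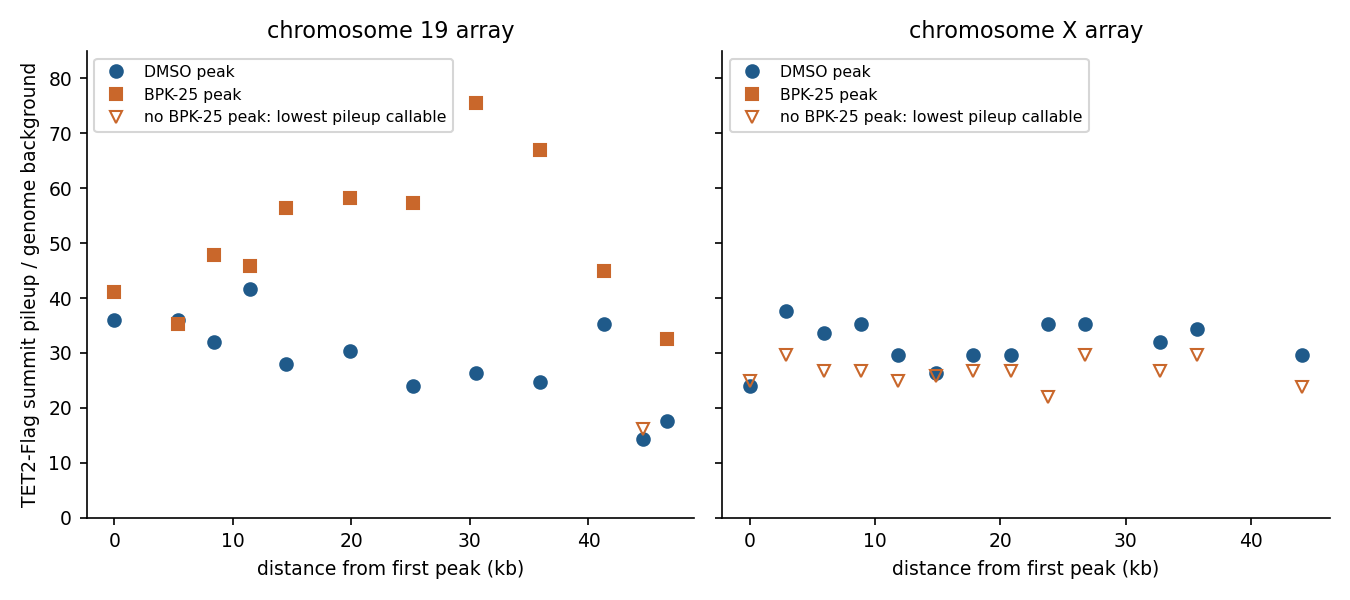
Relative pileup of TET2-Flag summits (vertical axis, pileup over genome background) against distance from the first peak in kb (horizontal axis) in the chromosome 19 and chromosome X arrays. Circles are DMSO peaks, squares BPK-25 peaks, and open triangles mark the lowest relative pileup callable under BPK-25 where no BPK-25 peak was called; 11 of 12 chromosome 19 sites have a BPK-25 peak, and on chromosome X 0 of 13.

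At sites called in both lists the direction of the change depended on the scale. There were 234 ordinary-background sites with summits within 100 bp. Only sites that passed the call under BPK-25 enter, so the ratios below leave out the lost peaks and are not the typical change of a DMSO peak. Their median pileup was 30.5 fragments under DMSO and 20 under BPK-25. Relative to genome background the median BPK-25 to DMSO ratio was 0.828 (quartiles 0.597 and 1.07, range 0.205 to 2.86), and 71 of 234 were above 1. The local background was lower as well, by median from 2.246 times the genome background under DMSO to 1.114 times under BPK-25. The authors' fold enrichment divides by that background, and its median was 7.65 under DMSO and 9.26 under BPK-25, higher under BPK-25 at 150 of 234 sites with a median ratio of 1.17. On relative pileup, 38 sites (16.2%) were lower by more than 2-fold with a counting interval below 1, and 4 (1.71%) were higher by the same rule. The 4 higher sites were all in windows. Sites in windows had a median ratio of 0.947 (128 sites) and sites outside them 0.657 (101 sites), with 9 and 28 lower by the rule. Sites with a TET1 BPK-25 peak had a median of 0.885 (159 sites) and sites without one 0.735 (75 sites).

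**Figure D5:**
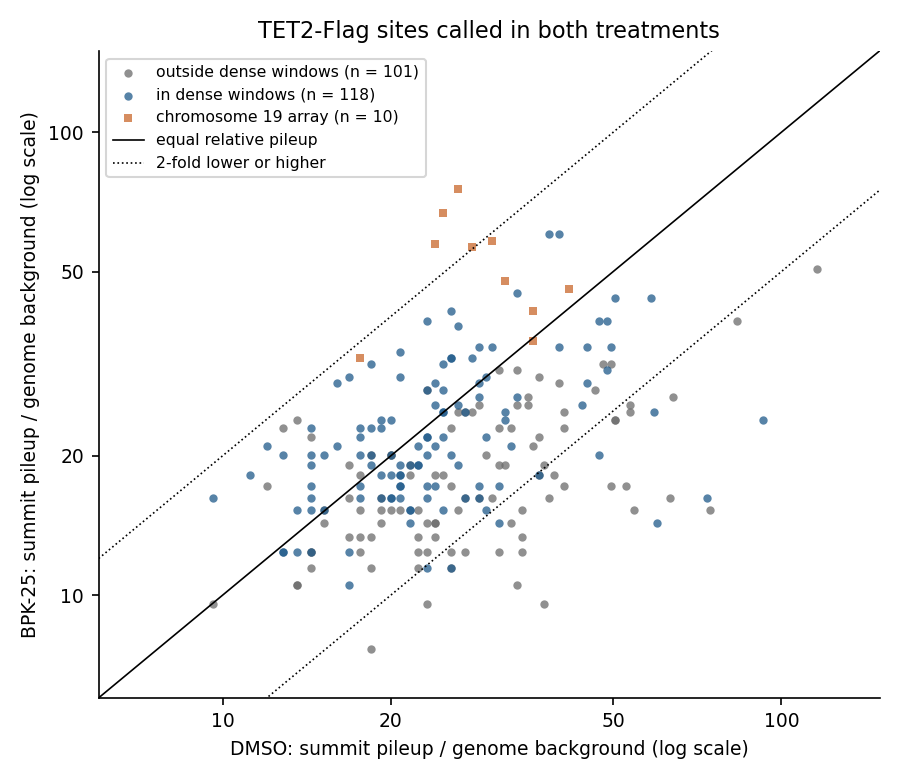
Relative pileup of TET2-Flag summits under BPK-25 (vertical axis, log scale) against DMSO (horizontal axis, log scale) at ordinary-background sites called in both lists on chromosomes 1 to 22 and X, 101 outside dense windows and 128 inside, of which 10 in the chromosome 19 array. Sites outside windows lie mostly under the line of equal values (median ratio 0.657), window sites lie around it (0.947), and the chromosome 19 sites lie above or close to it.

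The strongest of the kept TET2 sites had far fewer fragments under BPK-25. The top peak, chr17:1372451-1372909, had 145 fragments at its summit under DMSO and 53 under BPK-25, a ratio of relative pileup of 0.436 (0.312 to 0.602). At chrX:1324263-1325472 the pileups were 104 and 41 (ratio 0.471, 0.320 to 0.682). At chr18:11688992-11689305 they were 93 and 16, the lowest ratio of any shared site (0.205, 0.113 to 0.351). At chr8:26724673-26724998 they were 66 and 18 (0.326, 0.182 to 0.555). All 10 of the strongest kept peaks had ratios under 0.5, from 0.205 to 0.474, with counting intervals below 1. All 10 had TET1 and TET3 peaks under DMSO and TET3 peaks under BPK-25, 1 had a TET1 peak under BPK-25, and 3 lay on DMSO CTCF peaks. At the top peak TET3 also had the smaller value under BPK-25, with a relative pileup of 108 under DMSO and 68.1 under BPK-25, and TET1 went from 93.6 to no peak. These 10 were ranked on their DMSO values, which favours high counts in that list.

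Some strong TET2 peaks had no BPK-25 TET2 peak within 1000 bp. The strongest lost peak by q-value was chr10:74114518-74115037, with 71 fragments under DMSO. At an unchanged relative pileup 59.5 fragments would be present under BPK-25, and 11 would have sufficed for a call, which sets a limit of 5.95-fold lower. By the same reckoning the limit was 6.46-fold lower at chr1:67520069-67520399 (54 fragments), 4.67-fold at chr20:58100642-58100966 (39 fragments) and 4.32-fold at chr11:3181463-3181820 (67 fragments). These limits take the DMSO local background, scaled to the BPK-25 depth. With a background 3 times as high they would be 2.97-fold, 3.48-fold, 2.51-fold and 2.16-fold, in the same order. All 10 of the strongest lost peaks had TET1, TET3 and MBD3 peaks under DMSO. Under BPK-25 all 10 still had a TET3 peak, 0 had a TET1 peak, and 6 had CTCF and MBD3 peaks. TET3 had the lower relative pileup under BPK-25 at all 10, by very different amounts. It was 57.2 under DMSO and 13.4 under BPK-25 at chr11:3181463-3181820, and 36.6 and 16.4 at chr1:67520069-67520399. At chr10:74114518-74115037 it was 33.0 and 23.1, and at chr20:58100642-58100966 21.2 and 20.7.

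New TET2 peaks fell into a pair of sets that differed in what lay there under DMSO. Over the whole BPK-25 list 205 of 509 peaks (40.3%) overlapped no DMSO TET2 peak, and 119 of these lay on high background. A TET1 or TET3 DMSO peak lay on 71 of the 205 (34.6%), and no DMSO peak of TET1, TET3, CTCF or MBD3 on 126. On high background 4 of the 119 overlapped a TET1 or TET3 DMSO peak. Among ordinary-background peaks 86 of 339 were new (25.4%, 20.8 to 30.4%). These 86 were small, with a median of 13 fragments, and mostly at places with TET calls under DMSO. TET1 or TET3 DMSO peaks lay on 67 of the 86 (77.9%), TET3 BPK-25 peaks on 70 and TET1 BPK-25 peaks on 23. On chromosomes 1 to 22 and X, 30 of the 80 new peaks fell in the dense windows. The limits that follow take the BPK-25 local background, scaled to the DMSO depth. At chr6:26575710-26576013 32 fragments stood under BPK-25 where 8 would have made a DMSO call, a limit of 5.46-fold higher. The corresponding values at chr6:27515390-27515748 were 25 fragments and 4.26-fold, and at chr6:27247980-27248205 22 fragments and 3.75-fold. With the background raised by the median shift seen at shared sites, the limits at these 3 sites would be 3.47-fold, 2.71-fold and 2.39-fold. TET1 was lower at that first site, with a relative pileup of 17.9 under DMSO and 7.99 under BPK-25, and TET3 had 15.9 and 20.1. These 3 sites ranked 3, 4 and 6 among the 10 strongest new peaks. Ranks 1, 2 and 5 were chr1:567877-568064, chr7:24018-24459 and chr1:228770570-228770749, on 13.1, 13.5 and 5.16 times the genome background. Their limits with the raised background would be 2.43-fold, 1.89-fold and 1.75-fold. All 86 new peaks would have been callable in the DMSO list at an unchanged relative pileup and background. That result was bound to follow, since the DMSO list was the deeper and its lowest −log10 p was 4.97 against 5.34 under BPK-25. With the raised background 55 would have been callable.

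What the loss of a call says is limited for weak peaks, and it depends on the background assumed. With the DMSO local background scaled to the BPK-25 depth, 701 of the 927 lost peaks (75.6%) would have been callable under BPK-25 at an unchanged relative pileup and 226 would not, and at 0.5 of that pileup 57 would have been. The median limit on the fall is then 1.30-fold. With the BPK-25 genome background, 873 would have been callable at an unchanged pileup, 54 would not, and at 0.5 of it 283 would have been. On the scaled local background the share callable at an unchanged pileup was alike on and off CTCF, 76.0% of 688 and 74.5% of 239.

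TET2 stood between TET1 and TET3 in how many of its peaks were kept. For ordinary-background peaks on the main chromosomes, each protein compared in its own pair of lists, TET1 had 5866 peaks under DMSO and 345 under BPK-25 with 4.09% kept, TET2 had 1163 and 328 with 21.1% kept, and TET3 had 14000 and 13185 with 31.7% kept. In the TET2 windows every protein kept more: 38.6% of TET1 peaks inside against 1.96% outside, 56.5% against 12.0% for TET2, and 77.4% against 30.2% for TET3. The windows were drawn on TET2 peaks, the lists differ in depth and length, and peak strength was not held equal. These shares are therefore set side by side without a test. At shared sites the median ratio of relative pileup was 0.589 for TET1, 0.827 for TET2 and 0.859 for TET3. Peaks not called under BPK-25 do not enter these ratios, and their share differed by protein. Only for TET3 did most BPK-25 peaks have no DMSO counterpart, 65.9% against 29.0% for TET1 and 24.4% for TET2.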

How the data were processed

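ChIP-seq peaks of TET2-Flag were compared between 2 DMSO and 3 BPK-25 immunoprecipitates of HEK293T cells, each treatment with 3 inputs. The submitters' processing notes name the peak caller MACS2 2.1.2, the aligner Bowtie2 2.3.4, the build hg19, and also bedtools 2.25.0, FastQC 0.11.7 and SAMtools 1.9; which step used which, and with what settings, is not given in the sources used here. Per the labels, 1 peak list stands for all replicates of a group. The lists deposited by the authors give, for each summit, a fold enrichment (a linear ratio to the local background), a −log10 p and a −log10 q, and the summit's offset in bases, another deposited value. The lowest −log10 q matched a q-value limit of 0.05.

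Peaks were merged, and the pileup n and background were solved from the fold enrichment, (n + 1) / (background + 1), and the Poisson tail probability. Every pileup below 200 came out whole within 0.02. The solver was tested on simulated data. Total reads are unknown, and the lowest background stood in for depth. Shares have Clopper-Pearson 95% intervals, and ratios of pileup have exact conditional binomial intervals; both cover counting error only. A site was called lower or higher past 2-fold with an interval that leaves 1. Named regions are the 10 strongest kept, lost and new peaks by −log10 q, the 3 highest and 3 lowest ratios and the 5 strongest high-background peaks; arrays, windows and the trio were chosen after their values were seen. The members, lists and rules were chosen with earlier results of these data known. All 10 lists were used; no sequence is printed, as the tables at hand are of another build. Alternatives are listed in the closing section.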

Additional observations from a re-analysis of the deposited data

How the results depend on the processing

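The lists pool all replicates, so leaving out a replicate gave no value. No paired analysis was possible because each treatment has 1 pooled list with no replicate numbers. Of the alternatives tried, 31 values stayed within 1.5 times the number ratio or within the counting interval of the share or median, 29 moved and 5 reversed; the cause was not tested. The number of TET2 peaks, BPK-25 over DMSO (0.413), was 0.658 at a −log10 q of at least 5, 0.916 at 10, and 1.02, the other direction, at a fold enrichment of at least 10. The share of DMSO peaks kept (24.7%) was 38.7% and 48.9% at those q limits, 21.2% without high background, 51.7% for equal numbers of strongest peaks, 56.0% for both together and 27.7% at a fold enrichment of 10. The new share (40.3%) was 47.3% at a −log10 q of 10, 33.4% on the main chromosomes, 25.96% without high background in either list, 48.3% for equal numbers and 72.9% at a fold enrichment of 10. The CTCF share of DMSO peaks (67.1%) was 63.6% and 54.5% at the q limits, 69.8% without high background, 60.9% with 50% of the peak covered and 48.3% for summits within 200 bp. The MBD3 share (84.8%) was 87.8%, 80.9% and 65.5% in the last 3 settings. The share with TET1 or TET3 (83.9%) was 93.3% and 95.3% at the q limits and 79.2% by summits, and under BPK-25 (80.4%) it was 85.6% on the main chromosomes, 94.4% without high background and 76.4% by summits. The median ratio at shared sites (0.896) was 0.828 without high background and 0.840 at a −log10 q of 10. It reversed to 1.82 when scaled by local background (1.67 without high background) and to 1.21 as fold enrichment (1.17 without). The settings on fold enrichment, both exclusions together, the last scaling pair without high background, the other window limits and the other backgrounds for named peaks were chosen after seeing the data. With 8 fragments the lowest pileup called in either list, falls smaller than the limits given per site could not be seen.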

Other observations

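Peaks on high local background were more numerous under BPK-25 than under DMSO. On the contig chr9_gl000199_random 42 such peaks were called under BPK-25 and 8 under DMSO, on chrUn_gl000226 18 and 0, on chromosome 10 19 and 9 and on chromosome 2 21 and 12. At 45 shared high-background sites the median ratio of relative pileup was 1.54, and 43 of the 45 were above 1, while ordinary sites had a median of 0.828. That contrast depends on the scale: on fold enrichment both sets were higher under BPK-25, with median ratios of 1.27 and 1.17. The strongest, chr1:121484363-121485419, had 9463 fragments under DMSO and 10804 under BPK-25, and TET1 and TET3 had peaks there under both treatments. All 5 strongest such peaks had TET1 and TET3 peaks under BPK-25, against 85 (TET1) and 57 (TET3) of all 170 high-background BPK-25 peaks.

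A chromosome 2 window, chr2:74273497-74329252, stood apart by its background and by the levels of TET1 and TET3 there. Its 5 DMSO TET2 peaks lay on 6.23 to 19.1 times the genome background, and 4 were kept. Their pileups of 59, 61, 74 and 61 fragments stood against 21, 21, 32 and 32 under BPK-25, the last pair sharing 1 BPK-25 peak. TET3 at these 5 peaks had relative pileups of 1641 to 3200 under DMSO and 1795 to 5538 under BPK-25, and TET1 479 to 1060 under DMSO and no peak under BPK-25. The part of these levels in the TET2 calls was not tested. A new TET2 peak at chr1:567877-568064, with 120 fragments, had TET1 and TET3 peaks under BPK-25 and no peak of any protein under DMSO.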
